A study of Mus musculus with 6 samples.

Results

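Natriuretic peptides are small hormones that act through receptors on nearby or distant cells, and the genes described here are their 3 precursor genes, their 3 receptor genes and Corin, whose product cuts a precursor. The 7 genes were taken by symbol from a table of 55291 genes: Corin, Nppa, Nppb, Nppc, Npr1, Npr2 and Npr3. They were chosen by the difference in their counts between the same 2 groups of libraries, so their own differences are given below as a description, and no p-value is given for them. Total RNA of dorsal skin from mice at day 40 was sequenced in 6 libraries, 3 from wild-type C57BL/6 mice (WT, replicates 1 to 3) and 3 from B6.Cg-Fbn1Tsk/J mice (Tsk, replicates 4 to 6), whose genotype the labels write as Fbn1+/-. Tsk, tight skin, is known as an allele of the fibrillin 1 gene, Fbn1, with an internal duplication. Both groups were of the same age and tissue, and no treatment is named. The labels do not say that each library came from a separate animal, so the SE, SD and p-values cover the spread between these libraries, which may be technical.

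As background, Nppa encodes atrial natriuretic peptide, Nppb brain natriuretic peptide and Nppc C-type natriuretic peptide. Corin is a serine protease anchored in the cell membrane that cuts the atrial precursor into its active form, and it was first studied in the heart. Npr1 and Npr2 encode receptors that are themselves guanylyl cyclases and make cyclic GMP inside the cell, Npr1 for the atrial and brain peptides and Npr2 for the C-type peptide. Npr3 encodes the clearance receptor, which lacks the cyclase and takes peptides into the cell for breakdown. In skin, Corin is known as a marker of the dermal papilla, the group of mesenchymal cells at the base of the hair follicle, where it modifies the agouti pathway of coat colour. Npr1 and Npr3 are known in blood vessels and fat.

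Library totals ran from 17561271 to 19219622 counts. Values are CPM, counts relative to the library total, scaled by the trimmed mean of M-values (TMM), which corrects for differences in RNA composition. Fbn1 stood at 260 to 351 CPM in the 3 WT libraries and at 1447 to 2049 CPM in the 3 Tsk libraries. Whole skin was used, and the 16 skeletal muscle markers held 17.1 to 24.8% of counts in WT and 14.7 to 16.9% in Tsk, so the libraries mix muscle, fat, dermis, epidermis and hair follicles. In such bulk samples, more cells of a type and more RNA per cell cannot be told apart.

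Corin counts were few in WT skin and higher in every library of Tsk skin. WT replicates 1, 2 and 3 held 11, 5 and 12 Corin counts, and Tsk replicates 4, 5 and 6 held 138, 98 and 159. In CPM these were 0.611, 0.323 and 0.744 in WT and 7.14, 4.57 and 7.47 in Tsk. The groups did not overlap, and the lowest Tsk library stood 6.15-fold above the highest WT library. The means were 0.560 ± 0.215 and 6.39 ± 1.59 CPM (SD, n = 3 each), an 11.4-fold ratio, and the fitted log2 fold change was 3.49 ± 0.34 (SE). Among the 19971 genes tested, Corin ranked 24 by log2 fold change. Corin lies on the minus strand of chromosome 5 from 72300025 to 72504473 in the mm10 build. The WT side of the ratio rests on 28 counts in all.

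**Figure D1:**
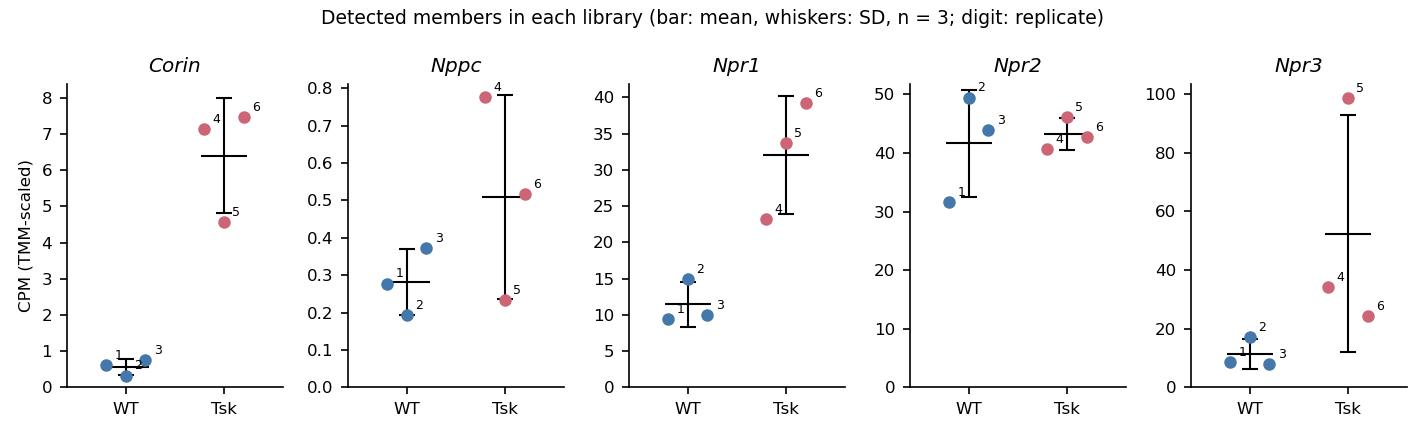
TMM-scaled CPM of the 5 members detected in every library, for the WT and Tsk groups (y axis, linear from 0, a separate scale per gene). Points are libraries with their replicate digit, the bar is the mean and the whiskers the SD (n = 3). Corin, Npr1 and Npr3 were higher in each Tsk library than in each WT library, Npr2 and Nppc overlapped, and Npr3 of Tsk replicate 5 stood at 98.6 CPM.

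The peptide genes were at or near 0 in all libraries. Nppa, the gene of the precursor that Corin cuts, had 0 counts in all 6, which allows up to 3 counts or 0.140 to 0.194 CPM per library, for counting error only. Nppb had 3 counts in WT replicate 2 and 0 in the other 5 libraries, so no fold is given. The atrial and brain precursor genes lie next to each other on the plus strand of chromosome 4, Nppb from 147985788 to 147987205 and Nppa from 148000722 to 148002079. No transcript of either was thus detectable at this depth in Tsk skin, where Corin was at its higher level. Of the 8 listed heart muscle markers, Myl7 and Nkx2-5 also had 0 counts in every library.

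Nppc was the precursor gene seen in every library, at low counts. It held 5, 3 and 6 counts in WT replicates 1 to 3 and 15, 5 and 11 in Tsk replicates 4 to 6, which is 0.278, 0.194 and 0.372 CPM against 0.776, 0.233 and 0.517 CPM. The groups overlapped, since Tsk replicate 5 lay below WT replicates 1 and 3. The sums of 14 and 31 counts gave a ratio of 1.77 with a 95% exact interval of 0.914 to 3.60, which covers counting error only, so a difference was not detectable at this depth. Nppc lies on the minus strand of chromosome 1 from 86666291 to 86670571, and it did not pass the filter on low counts, nor did Nppa and Nppb. The fit therefore covered 4 of the 7 genes.

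All 3 receptor genes were detected in every library. Npr1, the cyclase receptor for the atrial and brain peptides, had 169, 231 and 161 counts in WT and 449, 722 and 836 in Tsk, at 9.39, 14.9 and 9.98 CPM against 23.2, 33.7 and 39.3 CPM. The groups did not overlap, with the lowest Tsk library 1.56-fold above the highest WT library. The means of 11.4 ± 3.05 and 32.1 ± 8.14 CPM (SD, n = 3 each) gave a 2.80-fold ratio and a log2 fold change of 1.49 ± 0.24 (SE). Npr1 lies on the minus strand of chromosome 3 from 90450591 to 90465866.

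Npr2, the cyclase receptor for the C-type peptide, had overlapping values in the groups. Its counts were 570, 764 and 707 in WT and 786, 987 and 910 in Tsk, or 31.7, 49.4 and 43.8 CPM against 40.7, 46.1 and 42.7 CPM. All 3 Tsk libraries lay inside the WT range. The log2 fold change was 0.05 ± 0.17 (SE), a difference smaller than the spread between replicates. With library totals in place of TMM scaling it stood at 0.35, a scaling that moved the median of all genes to 0.25. It was 0.38 ± 0.14 (SE) when the mean of the skeletal muscle markers entered the fit, where the median of all genes was -0.0043, and -0.09 without WT replicate 1. Npr2 lies on the plus strand of chromosome 4 from 43631935 to 43651244, far from the Nppa and Nppb pair on the same chromosome.

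Npr3, the clearance receptor, was higher in Tsk and varied the most among the Tsk libraries. Its counts were 155, 266 and 130 in WT and 660, 2112 and 517 in Tsk, at 8.61, 17.2 and 8.06 CPM against 34.2, 98.6 and 24.3 CPM. The groups did not overlap, the lowest Tsk library being 1.41-fold above the highest WT library. Tsk replicate 5 alone stood 3.37-fold above the mean of Tsk replicates 4 and 6. The fitted log2 fold change was 2.22 ± 0.57 (SE), and 1.37 without Tsk replicate 5. Npr3 lies on the minus strand of chromosome 15 from 11839896 to 11907287.

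Of the 4 genes in the fit, Corin and Npr1 were among those called at an adjusted p of 0.05 by edgeR's quasi-likelihood fit, while 3.42% of all genes tested were, 2.72% higher and 0.696% lower in Tsk. Higher in Tsk without overlap between the groups were Corin, Npr1 and Npr3, against 14.1% of all genes tested (24.7% in either direction). Because these genes were chosen knowing this contrast, nothing is read from either count. The count called was 1 without WT replicate 3, and 3 without Tsk replicate 6, with DESeq2 and with limma-trend.

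Levels of different genes were compared per kilobase of annotated exon, since a longer transcript yields more counts at the same level. In WT skin the order was Npr2 at 8.92 ± 1.95, Npr1 at 2.39 ± 0.638, Npr3 at 1.20 ± 0.546, Nppc at 0.270 ± 0.0855 and Corin at 0.104 ± 0.0398 CPM per kb (SD, n = 3). Each neighbour in that order was separated from the next in all 3 libraries, though Npr1 and Npr3 only narrowly, at a lowest Npr1 of 1.96 against a highest Npr3 of 1.83 CPM per kb. In Tsk skin Npr2 stood at 9.25 ± 0.583, Npr1 at 6.70 ± 1.70, Npr3 at 5.57 ± 4.30, Corin at 1.18 ± 0.294 and Nppc at 0.488 ± 0.261 CPM per kb. Corin thus changed places with Nppc, but both gaps were narrow. In WT the lowest Nppc was 0.186 against a highest Corin of 0.138, and in Tsk the lowest Corin was 0.847 against a highest Nppc of 0.745 CPM per kb. Nppc rests on 3 to 15 counts per library and Corin in WT on 5 to 12, so their order is uncertain. Npr1 and Npr3 were not separated in Tsk, where Npr3 reached 10.5 CPM per kb in replicate 5. Exon length is the union of all annotated exons, 9.39 kb for Npr3 and 4.67 to 5.40 kb for Npr2, Npr1 and Corin, and which transcript forms skin uses was not tested.

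**Figure D2:**
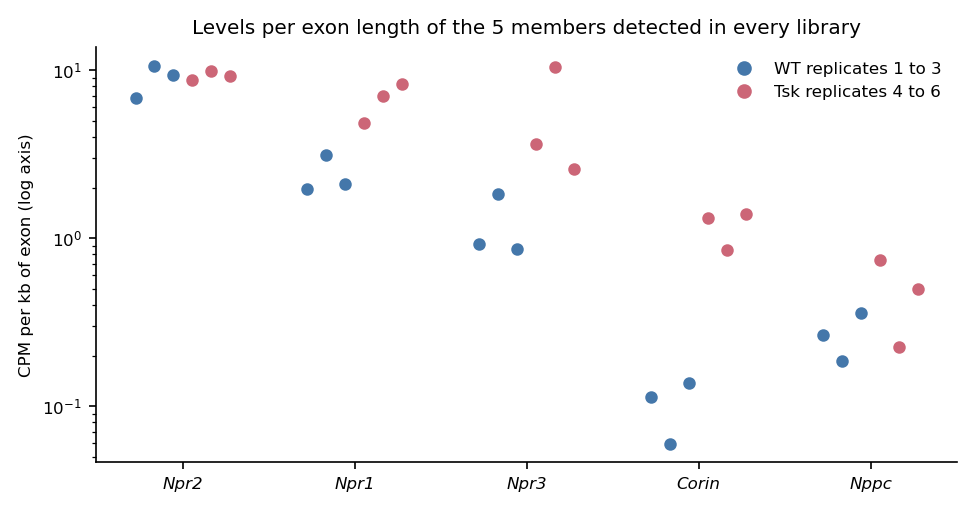
CPM per kilobase of annotated exon (log axis) for the 5 members detected in every library, ordered by their WT mean except that Corin is drawn before Nppc. Each point is a library, blue for WT replicates 1 to 3 and red for Tsk replicates 4 to 6. Npr2 lies between 6.78 and 10.6 CPM per kb in both groups, and Corin lies at up to 0.138 in WT and from 0.847 CPM per kb in Tsk.

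The make-up of the receptors differed accordingly. Npr2 held 70.2, 68.1 and 76.1% of the summed receptor level per kb in WT replicates 1 to 3 and 50.6, 36.0 and 45.9% in Tsk replicates 4 to 6. Npr1 held 19.1 ± 1.90% in WT and 31.7 ± 8.28% in Tsk (SD, n = 3 each). The clearance receptor Npr3 held 9.49, 11.8 and 6.96% in WT and 21.1, 38.3 and 13% in Tsk. The count ratio of Npr3 to Npr1, the clearance receptor over the cyclase receptor for the same peptides, overlapped between the groups, at 0.917, 1.15 and 0.807 in WT and 1.47, 2.93 and 0.618 in Tsk. Tsk replicate 6 had the lowest ratio of all libraries and Tsk replicate 5 the highest.

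**Figure D3:**
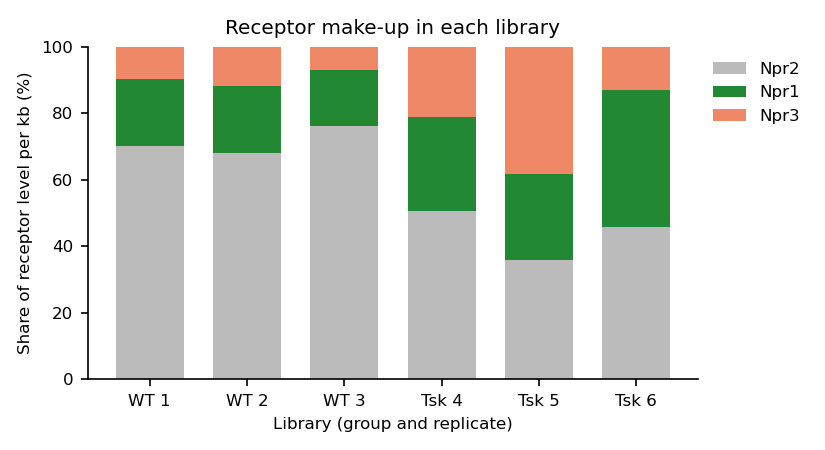
Share of Npr2, Npr1 and Npr3 in the summed receptor level per kilobase (y axis, percent) in each of the 6 libraries. Npr2 takes 68.1 to 76.1% in WT and 36.0 to 50.6% in Tsk, and Npr3 is broadest in Tsk replicate 5 at 38.3%.

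Promoter sequences are shown for the 3 genes that were higher together in Tsk skin and for Npr2, whose groups overlapped, to let the regions be compared. Each is the 250 bases before the RefSeq transcription start on the strand of the gene, from build GRCm38.p6, the same assembly as mm10. All 7 members matched the RefSeq table. Capitals mark matches, on either strand, to 5 motifs. The TATA box was searched as TATAAA. The letters of the CCAAT box are its name. For the GC box, known to bind Sp1, the search used GGGCGG. The motif of the AP-1 factors was written as TGANTCA, and that of the GATA factors was read as AGATAA. In order the windows are chr5:72504541-72504790 on the minus strand, chr3:90465867-90466116 on the minus strand, chr15:11907372-11907621 on the minus strand and chr4:43631685-43631934 on the plus strand.
Corin: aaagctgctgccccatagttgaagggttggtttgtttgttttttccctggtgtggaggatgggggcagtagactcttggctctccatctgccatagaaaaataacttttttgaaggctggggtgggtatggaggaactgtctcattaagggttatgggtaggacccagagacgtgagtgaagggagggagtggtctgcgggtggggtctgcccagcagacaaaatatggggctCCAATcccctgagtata
Npr1: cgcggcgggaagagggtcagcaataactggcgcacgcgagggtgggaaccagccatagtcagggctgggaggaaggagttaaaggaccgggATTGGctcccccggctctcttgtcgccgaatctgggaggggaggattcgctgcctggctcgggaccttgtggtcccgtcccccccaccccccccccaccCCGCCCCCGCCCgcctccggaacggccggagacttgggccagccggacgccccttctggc
Npr3: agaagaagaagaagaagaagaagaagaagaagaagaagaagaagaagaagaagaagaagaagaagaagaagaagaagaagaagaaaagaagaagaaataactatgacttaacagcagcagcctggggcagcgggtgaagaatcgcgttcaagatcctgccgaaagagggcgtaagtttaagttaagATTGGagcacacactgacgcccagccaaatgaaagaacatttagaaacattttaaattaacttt
Npr2: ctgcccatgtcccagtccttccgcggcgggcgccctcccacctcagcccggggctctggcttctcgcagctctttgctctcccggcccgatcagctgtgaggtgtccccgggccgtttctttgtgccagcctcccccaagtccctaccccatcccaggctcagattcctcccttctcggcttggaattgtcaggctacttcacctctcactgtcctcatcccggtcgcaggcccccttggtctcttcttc

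CCAAT was found once in each of Corin, Npr1 and Npr3, and the Npr2 window held none of the 5 motifs. Its position was -17 in Corin, -159 in Npr1 and -64 in Npr3, counted from the start with -1 as the base just before it, and the last 2 matches were on the opposite strand. Of 32851 promoter windows of the same length, 33.8% held CCAAT, so a match is common. The window of Nppc, whose groups overlapped, also held it, at -82 on the opposite strand. The match was thus not confined to the members higher in Tsk. GGGCGG occurred at -60 and -54 in Npr1, side by side without overlap, and in 32.7% of all windows. The TATA box, AP-1 and GATA letters were not found in the 4 printed windows, and 12.4%, 6.75% and 9.99% of all windows held them. The Npr3 window holds, from near its start, a run of 27 uninterrupted AAG repeats and had a GC content of 38.8%, whereas Npr1 had 70.4%, Npr2 64.4% and Corin 51.2%, with a median of 52.4% over all windows. The RefSeq start lies 67 bases upstream of the annotated gene start for Corin and 84 bases upstream for Npr3. These matches are a description of letters and do not show binding.

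The genes lying near Corin and the precursor pair were read for their position. Of 28 other genes within 500 kb of Corin, 10 were tested and 0 passed, with log2 fold changes from -0.28 to 0.82. Around the Nppa and Nppb pair, 22 of 42 genes were tested and 0 passed, from -0.36 to 0.73. With 3.42% of all genes tested called, nothing is read from 0 of 32. Over both regions 2 of 32 genes had an unadjusted edgeR p under 0.05, as did 20.1% of all genes tested, and DESeq2 called 1, limma-voom 0 and limma-trend 2. In addition, 10 genes overlap a member or lie within 200 bases of it, and none of them exceeded 22 counts over the 6 libraries, the largest being Spag8 beside Npr2.

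Peptide processing and breakdown was read from a list of 8 genes, all proteases except Ostn. Of these, 6 were tested and 1 rose (2.72% of all genes tested were called higher). Dpp4, a cell-surface dipeptidase that can trim natriuretic peptides, was at 6.83, 8.67 and 7.13 CPM in WT and 29.3, 38.4 and 48.1 CPM in Tsk. It rose by 2.36 ± 0.20 on the log2 scale (SE, edgeR adjusted p = 0.00278) and passed in all 14 alternative fits. Dpp4 is also a fibroblast marker in skin and stands in that list too. Pcsk6, the protease known to activate Corin, was higher in each Tsk library, at 26.5, 64.1 and 51.3 CPM in WT and 89.1, 132 and 108 CPM in Tsk. The difference, 1.21 ± 0.30 on the log2 scale (SE), missed the threshold at an edgeR adjusted p of 0.0682. Over the alternatives it ran from 0.95 to 1.90 and passed in 5 of 14, among them the fit without WT replicate 1 (0.95) and that with the skeletal muscle markers (1.90).

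Furin, a convertase of the brain and C-type precursors, stood at 0.31 ± 0.11 on the log2 scale (SE, edgeR adjusted p = 0.184), without overlap between the groups. Mme, the gene of neprilysin, which degrades natriuretic peptides, stood at 1.02 ± 0.60 (SE, edgeR adjusted p = 0.395). It was at 33.4 CPM in Tsk replicate 5 against 7.50 and 7.42 CPM in Tsk replicates 4 and 6, and without replicate 5 the value was -0.10. Ide, the insulin-degrading enzyme, was at 0.18 ± 0.29 and Ostn, whose product musclin binds the clearance receptor, at -0.70 ± 0.43, and both groups overlapped for each. The meprin gene Mep1a had 0 counts in every library and Mep1b at most 4. The list's median log2 fold change was 0.66, beside -0.03 over all genes tested.

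Of 30 listed genes around the synthesis, response and breakdown of cyclic GMP, 21 were tested. Of these, 1 rose and none fell, beside 2.72% and 0.696% of all genes tested. The list is wider than the part downstream of the natriuretic receptors. It also holds soluble and other receptor cyclases, the guanylin genes and the nitric oxide synthases. Pde3a, a phosphodiesterase that cyclic GMP inhibits, was at 7.28, 10.3 and 6.63 CPM in WT and 13.2, 17.3 and 15.1 CPM in Tsk. It rose by 0.92 ± 0.20 (SE, edgeR adjusted p = 0.0428), but passed in 1 of the 6 fits that left out a library and had an adjusted p of 0.0979 when the mean of the skeletal muscle markers entered the fit. The list's median was 0.61, with 16 genes above 0 and 9 of 21 higher in Tsk without overlap, beside 14.1% of all genes tested. DESeq2 called 7 of the 21 genes and limma-voom 1.

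Further genes of this list are named after their values were seen. Pde3b, the related phosphodiesterase of fat cells, was at 7.94, 9.70 and 7.999 CPM in WT and 19.6, 83.9 and 15.5 CPM in Tsk. The difference was 2.21 ± 0.64 on the log2 scale and did not pass (SE, edgeR adjusted p = 0.112). As for Npr3, Tsk replicate 5 stood apart, and without it the value was 1.03, which passed (edgeR adjusted p = 0.0348). Prkg1, the main cyclic GMP-dependent kinase of smooth muscle, was at -0.11 ± 0.26, and this sign turned under library totals alone (0.20) and in 4 other alternatives. The soluble guanylyl cyclase subunits Gucy1a1 and Gucy1b1, which respond to nitric oxide rather than to peptides, were at 0.89 ± 0.25 and 0.96 ± 0.28 and did not pass (SE, edgeR adjusted p = 0.0903 and 0.0974).

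**Figure D4:**
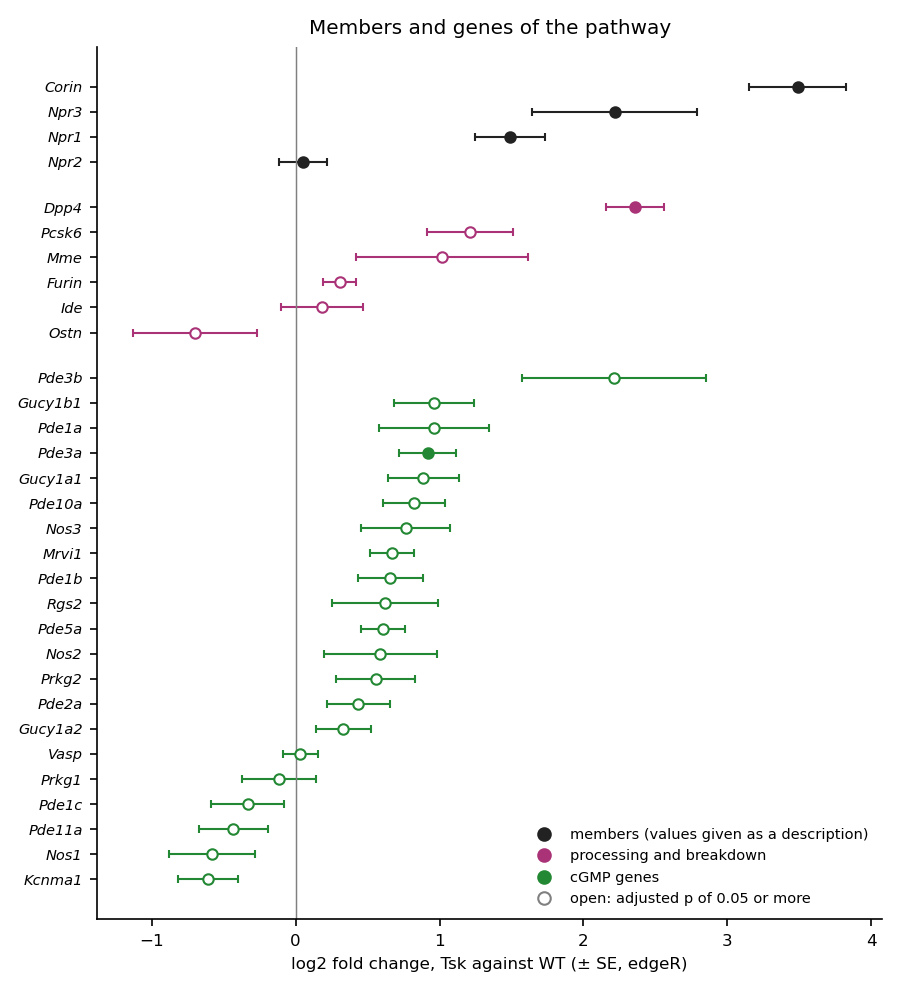
Log2 fold change of Tsk against WT with its SE (x axis, edgeR) for the 4 members in the fit (black, values as a description), 6 genes of peptide processing and breakdown (purple) and 21 cyclic GMP genes (green). Filled purple and green points passed an adjusted p of 0.05, which were Dpp4 and Pde3a, and open points did not.

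Corin belongs to the type II transmembrane serine proteases, which also include matriptase and the Tmprss family. Of 19 listed relatives and their inhibitors, 14 were tested and 0 passed in edgeR, 4 had an unadjusted p under 0.05 (20.1% of all genes tested did), and DESeq2 called 1, limma-voom 0 and limma-trend 2. Their median log2 fold change was 0.30. Highest in CPM, not corrected for length, were Tmprss11a at 30.9 ± 5.68 CPM in WT and 65.0 ± 40.4 CPM in Tsk (SD, n = 3 each), and the inhibitor gene Spint2 at 36.4 ± 10.8 and 45.5 ± 9.82 CPM. Their log2 fold changes were 1.08 ± 0.39 and 0.32 ± 0.24 (SE). The high mean of Tmprss11a came from Tsk replicate 6 at 111 CPM.

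Cell type markers were set beside the members, and their part in the members' differences was not tested. The counts of marker genes called stand beside 2.72% of all genes tested that were called higher. Dermal papilla markers had 2 of 21 tested genes higher, a median log2 fold change of 0.46 and summed levels of 173 to 183 CPM in WT and 222.4 to 248.7 CPM in Tsk, with none of the 22 at 0 throughout. Lef1, a transcription factor of Wnt signalling, rose by 1.11 ± 0.21 and Bmp6, a bone morphogenetic protein, by 0.98 ± 0.20 (SE, edgeR adjusted p = 0.0286 and 0.0382), each passing in 1 of the 6 fits with a library left out. With the skeletal muscle markers in the fit both missed the threshold (edgeR adjusted p = 0.149 and 0.0889). Bmp6 also missed it in limma-voom (adjusted p = 0.0552). Of the 21 papilla markers tested, 18 were above 0 and 3 below, namely Rspo3 (-0.09), Sostdc1 (-0.24) and Crabp1 (-0.73). Among the 18, Alpl, Prom1, Trps1 and Inhba stood at only 0.006 to 0.06. On a log2 scale centred on the WT mean, the papilla markers averaged 0.499, 0.624 and 0.417 above WT in Tsk replicates 4 to 6, and Corin 3.50, 2.87 and 3.56. Hair matrix and inner root sheath markers, which are made in growing follicles, had 4 of 12 tested genes higher, among them Dlx3 (1.86 ± 0.29) and the keratin gene Krt25 (4.77 ± 0.74, SE), the latter from 2, 4 and 0 WT counts, and none of the 14 listed was at 0 throughout. Dlx3 and Krt25 missed the threshold without WT replicate 3 and with the skeletal muscle markers in the fit (edgeR adjusted p = 0.0681 to 0.0957). The summed level of the list, most of it Gata3 and Tchh, overlapped at 137 to 197 CPM in WT and 169 to 219 CPM in Tsk. These 2 were also the only tested genes of the list with a log2 fold change below 0 (-0.04 and -0.16). Without them, a step added after the values were seen, the summed level was 14.6 to 22.3 CPM in WT and 40.1 to 49.2 CPM in Tsk. Leaving out the only tested genes below 0 favours a higher sum in Tsk, so nothing is read from this step. Centred on WT, the list averaged 1.34, 1.42 and 1.30 in Tsk replicates 4 to 6 and -0.323 to 0.317 in WT.

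Endothelial markers had 4 of 12 tested genes higher and all 12 above 0, at summed levels of 199 to 262 CPM in WT and 368 to 500.3 CPM in Tsk, and none was at 0. Plvap, of vessel wall diaphragms, rose by 1.16 ± 0.15 and Vwf, the von Willebrand factor gene, by 0.99 ± 0.16 (SE, edgeR adjusted p = 0.0105 and 0.0169). Neither call held without WT replicate 3 (edgeR adjusted p = 0.0611 for Plvap and 0.0813 for Vwf), and Plvap missed the threshold with the skeletal muscle markers in the fit (0.061). The average of the 12 endothelial markers on the centred log2 scale was 0.84, 1.28 and 0.73 in Tsk replicates 4 to 6, beside 1.05, 1.58 and 1.80 for Npr1. Fibroblast markers had 4 of 12 genes higher, including Mfap5 (2.61 ± 0.22), and averaged 1.13, 1.29 and 1.85 in the same libraries.

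Adipocyte markers were highest in the same Tsk library as Npr3, replicate 5, and none of the 12 was at 0. Their summed level was 514.5 to 737 CPM in WT and 1102, 3591 and 834 CPM in Tsk replicates 4, 5 and 6, and 3 of 12 genes were higher with a median log2 fold change of 2.45. Centred on WT, the list averaged 1.4, 3.25 and 0.924 in Tsk replicates 4 to 6, beside 1.68, 3.2 and 1.19 for Npr3. Tsk replicate 5 exceeded the mean of replicates 4 and 6 by 3.71-fold for the summed markers, 4.47-fold for Mme, 4.79-fold for Pde3b and 3.37-fold for Npr3, but by 1.08-fold for Npr1 and 1.10-fold for Npr2. Corin was lower there, at 0.626 of that mean. Cebpa, a regulator of fat cell formation, rose by 1.43 ± 0.29 and Lep, the leptin gene, by 3.50 ± 0.69 (SE, edgeR adjusted p = 0.0366 and 0.0414), in 2 and 3 of the 6 fits with a library left out. Without Tsk replicate 5 both passed, Lep at 2.45. Neither passed without a filter on low counts (edgeR adjusted p = 0.0623 and 0.193) or with the skeletal muscle markers in the fit (0.282 and 0.244).

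**Figure D5:**
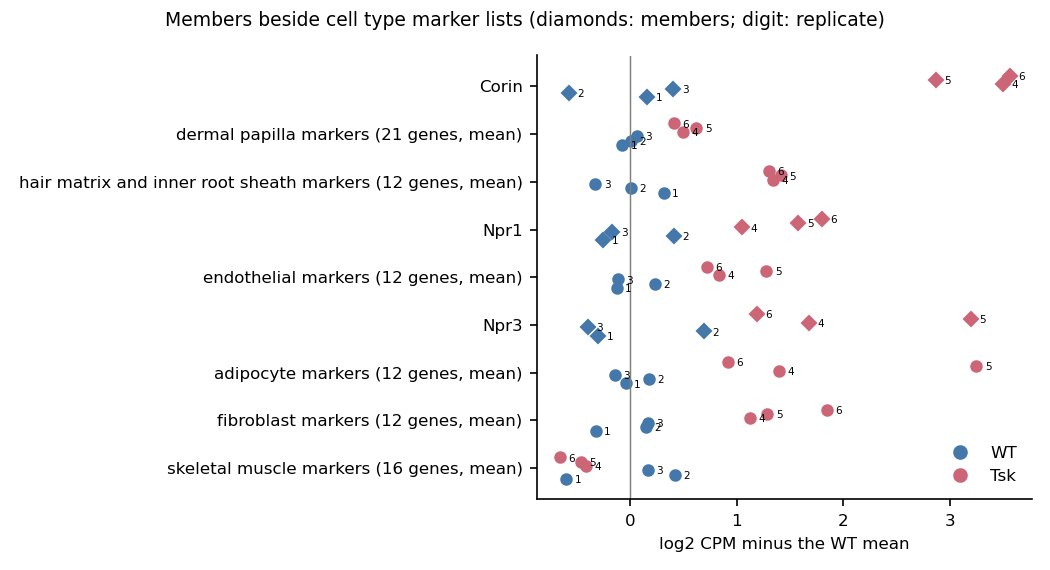
Log2 CPM minus the WT mean (x axis) for Corin, Npr1 and Npr3 (diamonds) and the mean of 6 marker lists (circles), for WT (blue) and Tsk (red) libraries with their replicate digit. Tsk replicate 5 lies at 3.2 for Npr3 and 3.25 for the adipocyte markers, apart from the other Tsk libraries, and Corin lies at 2.87 to 3.56 in Tsk while the dermal papilla markers lie at 0.417 to 0.624.

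For each member in the fit, the 3 genes most alike in pattern were found among 17742 others by the root mean square difference of centred log2 CPM over the 6 libraries. Corin was closest to Aldh1a3, a retinaldehyde dehydrogenase (0.385), Ildr2 (0.483) and Sprr4 (0.513), with a median of 2.40 over all genes searched. Aldh1a3 was at 3.72, 1.88 and 3.47 CPM in WT and 20.2, 30.1 and 42.3 CPM in Tsk. Within Tsk, Aldh1a3 and Ildr2 were lowest in replicate 4, whereas Corin and Sprr4 were lowest in replicate 5. Npr1 was closest to Zfpm2, a cofactor of GATA factors (0.0743), F730311O21Rik (0.110) and Galnt16 (0.136). Zfpm2 ran at 2.499, 3.69 and 2.48 CPM in WT and 6.36, 8.68 and 11.1 CPM in Tsk, and so shared the order of Npr1 in Tsk.

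Npr3 was closest to Aoc3, an amine oxidase (0.269), Btnl9 (0.272) and Acvr1c, an activin receptor (0.287), with a median of 1.62 over the genes searched. Aoc3 stood at 173 CPM in Tsk replicate 5 and at 44.3 and 30.9 CPM in Tsk replicates 4 and 6. Npr2 was closest to Ccpg1, Slc35e1 and Esrra (0.0404 to 0.0468), against a median of 0.352. These genes were selected for their likeness, and their log2 fold changes are no separate evidence.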

How the data were processed

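RNA of 6 libraries, 3 WT and 3 Tsk by their labels, was analysed. Per the labels' protocols, skin was snap frozen, ribosomal RNA was depleted and the kit marked the second strand with dUTP. Per the submitters' processing notes, bcl2fastq 2.19.1.403, STAR and Partek 7.0 were used on mm10, while gene models, counting rule and strand setting are not stated. Each gene has an estimated count, as deposited, with decimals in part, and these were rounded before testing. CPM values deposited by the authors served in 1 alternative only, as log2 with a pseudocount of 0.5, and their other 2 tables were not used.

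The main test was that of edgeR 4.0.16, run under R 4.3.3 (quasi-likelihood F-test, robust, TMM, default filter with a minimum count of 10 and a minimum total of 15), leaving 19971 genes. Benjamini-Hochberg adjusted p under 0.05 was called, and an SE is the log2 fold change over the square root of F. Alternatives were DESeq2 1.42.0, limma 3.58.1, other scalings and filters, a muscle covariate and leaving out each library. Log2 CPM for the centred scale used a prior count of 2. Coordinates and exon lengths are from GENCODE for mm10. Libraries of a group differed by more than sampling noise (chi-square over its degrees of freedom at least 8.60). The edgeR step was also run on counts simulated from its own fitted dispersions. That run does not cover an outlying library or a shift in RNA composition, and no result here rests on it.

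Members, 4 pathway lists and 11 marker lists (211 symbols, all matched) were chosen with earlier results of these data known. Named were the members, all tested processing genes, up to 4 called genes (or the 2 highest in mean CPM) per other pathway list, up to 2 per marker list and the 3 most alike genes per member.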

Additional observations from a re-analysis of the deposited data

How the results depend on the processing

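Over 14 alternatives the log2 fold change, given as a description, ran from 2.89 to 3.75 for Corin, 1.32 to 1.79 for Npr1, 1.37 to 2.74 for Npr3 and -0.09 to 0.38 for Npr2, which was below 0 without WT replicate 1. The count of all genes called, 683 (544 higher, 139 lower), was 1791 with library totals only (1695 higher), 1157 without a filter, 116 with the mean of the skeletal muscle markers as a covariate, 1592 with DESeq2 and 1888 with limma-trend on the deposited CPM (1786 higher). Leaving out a library gave 63 to 1381, namely 1381 without WT replicate 1, 328 without WT replicate 2, 63 without WT replicate 3, 401 without Tsk replicate 5 and 389 without Tsk replicate 6. Both settings without TMM moved the median of all genes, to 0.25 and 0.22. Members called were 2, and 3 with DESeq2, 3 with limma-trend, 1 with the covariate and 1 to 3 with a library left out. Npr1 was the member not called with the covariate and without WT replicate 3. For processing and breakdown genes the count of 1 became 3 with library totals only, 2 with the covariate, 2 with DESeq2, 3 with limma-trend and 1 to 2 with a library left out. For cyclic GMP genes the count of 1 became 7 with library totals only, 3 without a filter, 2 with at least 1 CPM in 3 libraries, 0 with the covariate, 7 with DESeq2, 7 with limma-trend and 0 to 2 with a library left out. For transmembrane proteases the count of 0 became 1 with DESeq2, 2 with limma-trend and 0 to 1 with a library left out. Pigment genes went from 0 to 2 with library totals only, without a filter, with DESeq2 and with limma-trend, and to 0 to 1 with a library left out. The neighbours went from 0 to 2 with library totals only, 1 without a filter, 1 with DESeq2 and 2 with limma-trend. Among the named genes that are not members, signs turned for 3, none of which had passed: Mme to -0.10 without Tsk replicate 5 (range with a library left out -0.10 to 1.36), Ide to -0.15 without Tsk replicate 4 (-0.15 to 0.45), and Prkg1 to 0.20 with library totals only, 0.49 with the covariate, 0.23 with limma-trend, 0.05 without WT replicate 2 and 0.060 without WT replicate 3 (-0.36 to 0.060). The cause of these shifts was not tested. No paired analysis was possible because WT and Tsk libraries carry different replicate numbers. Depth limits the peptide genes and the WT level of Corin.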

Other observations

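The agouti pathway of coat colour, which Corin is known to modify from the dermal papilla, was read from 15 genes of agouti and melanocortin signalling and pigment making. Of these, 10 were tested and 0 passed in edgeR, 4 had an unadjusted p under 0.05 (20.1% of all genes tested did), and DESeq2 called 2, limma-voom 0 and limma-trend 2. The median log2 fold change of the 10 was 0.27, with 8 above 0 and 2 below. Higher in Tsk without overlap between the groups were 4 of the 10, beside 14.1% of all genes tested. The agouti gene itself had 0, 1 and 2 counts in WT and 0, 6 and 6 in Tsk, on a C57BL/6 background that is known as nonagouti. The genes highest in CPM, not corrected for length, were Atrn and Mgrn1, which are required for agouti action. They had log2 fold changes of 0.16 ± 0.11 and 0.09 ± 0.12 (SE). Dct, an enzyme of melanin synthesis named after its values were seen, was at 4.50, 3.36 and 3.16 CPM in WT and 5.80, 9.33 and 6.67 CPM in Tsk, and did not pass (0.98 ± 0.24, SE, edgeR adjusted p = 0.0645).

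Genes listed as heart muscle markers were lower in Tsk skin as a sum, at 26.4 to 40.9 CPM in WT and 10.9 to 13.6 CPM in Tsk. Without Tnnt2 and Myl4, a step added after the values were seen, the sums overlapped. They were 6.55 to 11.7 CPM in WT and 4.19 to 8.17 CPM in Tsk. Of 6 tested, 2 were called lower, beside 0.696% of all genes tested, and 2 were above 0, Tbx5 (0.85 ± 0.27) and Tnni3 (0.01 ± 0.47, SE). Myl4, an embryonic light chain gene, fell by 2.64 ± 0.32 and Tnnt2, a troponin gene, fell by 1.61 ± 0.25 on the log2 scale (SE, edgeR adjusted p = 0.00792 and 0.0159). Tnnt2 missed the threshold without WT replicate 3 (edgeR adjusted p = 0.0804). Both are also known in immature skeletal muscle, so the list is not specific to heart.

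The other marker lists gave these counts in edgeR. Of 12 smooth muscle and pericyte genes, 1 rose and none fell (median log2 fold change 0.69). Their summed level was 2037 to 2875 CPM in WT and 1605 to 1937 CPM in Tsk, most of it Des, which skeletal muscle also expresses. Des was also the only gene of this list with a log2 fold change below 0 (-0.86 ± 0.23, SE). Without Des, a step added after the values were seen, the other 11 genes summed to 328 to 496 CPM in WT and 534 to 713 CPM in Tsk. Leaving out the only gene below 0 favours a higher sum in Tsk, so nothing is read from this step. Of 16 skeletal muscle genes none passed, 13 were below 0 and the median was -0.79. Of 10 Schwann cell genes 1 rose (median 0.52), of 12 keratinocyte genes 1 rose while 9 were below 0 (median -0.28), and of 10 macrophage and mast cell genes none passed while all 10 were above 0 (median 1.08).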
